A study of Mus musculus with 10 samples.

Results

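The pancreatic lipases and colipase were followed as a set of 6 genes, Pnlip, Pnliprp1, Pnliprp2, Cel, Clps and Pla2g1b, in the pancreas of wild-type (WT) mice and of KSR23 mice, which express IL-23. The genes were chosen by name, and all 6 were found among the 24062 genes counted per library. KSR23 mice carry the R23 cassette, in which both IL-23 subunits, p19 and p40, were placed in ROSA26 behind a STOP signal that cre removes, together with cre-recombinase driven by the K14 promoter. The cytokine was therefore directed to keratinocytes. Both groups were C57BL/6 mice at postnatal day 5 (P5), which still live on milk, and the study describes the controls as littermates. There were 5 WT and 5 KSR23 libraries, numbered 1 to 5 in each group, and each was taken as 1 mouse. The labels do not say more on how the replicates were made, so the p-values measure the spread between these libraries.

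Acinar cells of the pancreas make the enzymes that digest dietary fat and release them through the ducts into the duodenum. Pancreatic triglyceride lipase, the product of Pnlip, is the main fat-splitting enzyme of the weaned and adult animal, and it needs colipase, the product of Clps, to stay on fat droplets coated with bile salts. In suckling rodents Pnlip is low, and milk fat is handled largely by carboxyl ester lipase (Cel), which bile salts stimulate, and by pancreatic lipase-related protein 2 (Pnliprp2), while the related protein Pnliprp1 has little known activity on triglycerides and the phospholipase A2 Pla2g1b splits phospholipids.

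All 6 genes were lower in the pancreas of KSR23 mice, and they did not fall by the same amount. Pnlip, the adult lipase, showed the largest fall of the 6 and was left at 27.9% of its WT level. Clps followed, at 43.9%. The lipases of the suckling period fell less, with Pnliprp2 at 63.4% and Cel at 66.3% of WT. The related Pnliprp1 was at 76.7% and Pla2g1b at 67.5%. Levels are given as counts per 1000000 (CPM) of a library size scaled with TMM. KSR23 was set against WT in the quasi-likelihood test of edgeR, adjusted by Benjamini-Hochberg over 13882 genes. The test called all 6 genes lower at an adjusted p under 0.05, where it called 14.8% of all tested genes lower and 16.2% higher. For all 6 genes each KSR23 mouse was below each WT mouse, a pattern found in 8.74% of the tested genes. The median log2 fold change (FC) of the 6 genes was -0.62, beside -0.0056 over all tested genes. The genes were chosen with earlier results of these data known, so these comparisons with all tested genes are description only. In bulk tissue, fewer acinar cells and less of a message per cell cannot be told apart.

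**Figure D1:**
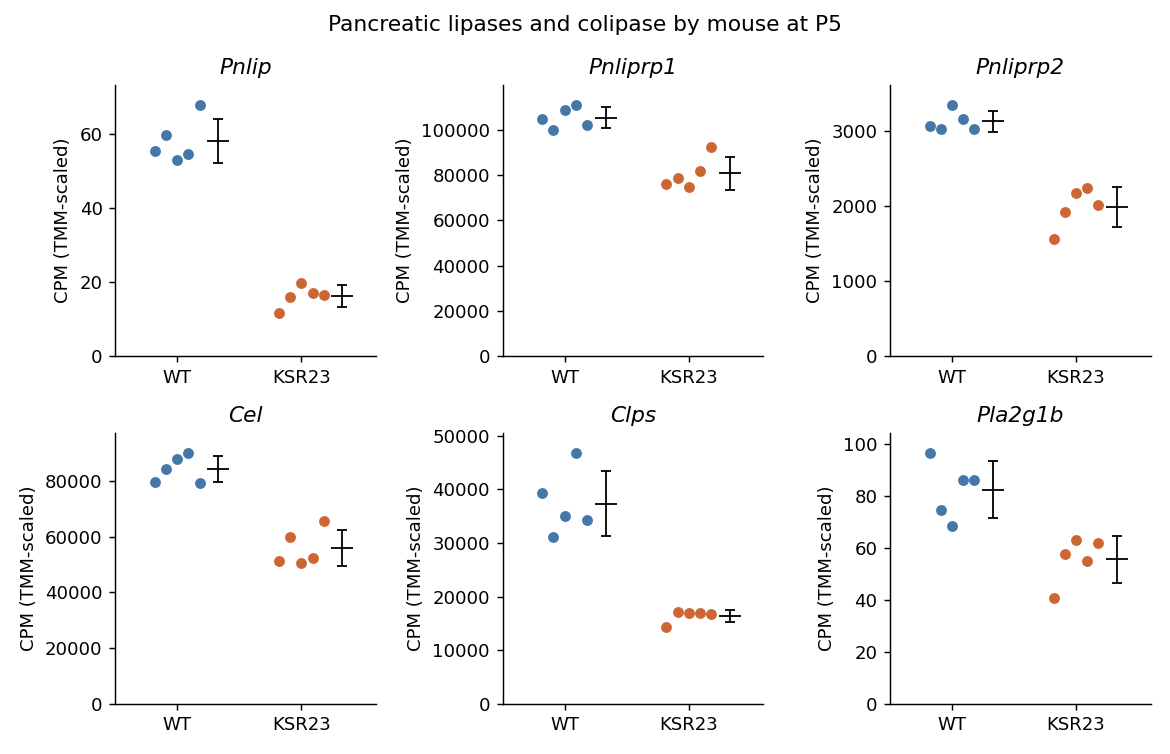
CPM of each gene (vertical axes, from 0) in each of the 5 WT and 5 KSR23 mice at P5 (points, replicates 1 to 5 from left to right), with the group mean ± SD (black). In all 6 panels every KSR23 mouse lies below every WT mouse, and the gap, as a share of the WT level, is widest for Pnlip, from 58.18 to 16.2 CPM on average.

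Counts on genes ran from 26830235 to 33189132 in the WT libraries and from 16715976 to 57784136 in the KSR23 libraries. A library's floor, taken as 3 counts, lay between 0.0519 and 0.179 CPM, far below the lowest value of any of the 6 genes. Il23a, which encodes p19, had 1 to 9 counts in the WT libraries and 21 to 48 in the KSR23 libraries, without overlap, and Il12b, which encodes p40, had 0 to 7 and 3 to 13. Across all tested genes 2049 were called lower and 2250 higher in KSR23 mice. Scaling by total counts only gave 1164 and 3072, with an all-gene median log2 FC of 0.09. Alignments that were not unique numbered 1.07 to 1.26 per gene count in WT mice and 0.667 to 0.787 in KSR23 mice, and the part of this in the results was not tested.

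The 3 lipase genes of the Pnlip family lie side by side on the plus strand of chromosome 19 (GRCm38, GENCODE M21). Pnlip spans chr19:58652498-58681788, Pnliprp1 chr19:58728887-58744169 and Pnliprp2 chr19:58759719-58777534. Cel lies at chr2:28555795-28563403 on the minus strand, Clps at chr17:28558149-28560766 on the minus strand and Pla2g1b at chr5:115466262-115474722 on the plus strand. Their longest coding transcripts hold 13 exons for Pnlip and Pnliprp1, 12 for Pnliprp2, 11 for Cel, 4 for Pla2g1b and 3 for Clps. An antisense gene, Gm13381, which is not among the genes counted, overlaps the Cel locus, and the microRNA gene Mir6969 lies within Clps.

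Although the 3 neighbouring lipases are related, reads of 75 bases from each can be told apart from those of the others. The coding sequences of Pnlip and Pnliprp1 were identical at 69.2% of aligned bases, those of Pnlip and Pnliprp2 at 69.9%, and those of Pnliprp1 and Pnliprp2 at 66.4%. The translated proteins shared 66.8%, 69.0% and 63.9% of aligned residues. Of the 75-base windows of each of the 6 transcripts, the length of the reads, 100% occurred in no other annotated gene on either strand, Gm13381 included. The closest windows of Pnlip and of Pnliprp1 still differed at 11 bases. Near matches in genes outside the 6, and sequence that is not annotated, were not searched.

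The tested genes at the borders of the chromosome 19 cluster did not pass the test. Gfra1, a receptor gene upstream of Pnlip, had a log2 FC of -0.04 (SE 0.107, adjusted p = 0.821, edgeR quasi-likelihood test, Benjamini-Hochberg adjusted), and Hspa12a, downstream of Pnliprp2, one of -0.09 (SE 0.253, adjusted p = 0.829). The nearest gene upstream, Ccdc172, had 0 counts in all 10 libraries, and the nearest downstream, 1700019N19Rik, had at most 6. Beside Cel, Ralgds was higher in KSR23 mice, with a log2 FC of 0.61 (SE 0.118, adjusted p = 0.000791), and Gtf3c5 was at 0.02 (SE 0.0879, adjusted p = 0.880). Clpsl2, a colipase-like gene next to Clps, had 0 counts in every library.

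The sequences before the transcription starts are shown for the 3 clustered lipases and for Cel, because these genes moved in the same direction by different amounts. Each line gives the 250 bases before the RefSeq start on the gene's own strand (GRCm38.p6), and capitals mark the letters CANNTG, the E-box bound by basic helix-loop-helix factors such as PTF1A, and TGGGAA or its complement TTCCCA, the core read by RBPJ and RBPJL, its partners in the acinar PTF1 complex.
Pnlip, chr19:58670115-58670364, plus strand: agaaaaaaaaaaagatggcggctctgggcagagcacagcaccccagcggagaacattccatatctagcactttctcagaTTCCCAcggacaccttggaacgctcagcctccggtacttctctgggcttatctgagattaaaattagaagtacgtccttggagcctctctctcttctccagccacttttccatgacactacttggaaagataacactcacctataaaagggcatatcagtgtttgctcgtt
Pnliprp1, chr19:58728637-58728886, plus strand: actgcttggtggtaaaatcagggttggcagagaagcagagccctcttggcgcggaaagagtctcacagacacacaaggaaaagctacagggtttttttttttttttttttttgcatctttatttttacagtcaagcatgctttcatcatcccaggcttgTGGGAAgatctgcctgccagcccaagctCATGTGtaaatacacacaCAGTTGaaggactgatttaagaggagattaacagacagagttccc
Pnliprp2, chr19:58759473-58759722, plus strand: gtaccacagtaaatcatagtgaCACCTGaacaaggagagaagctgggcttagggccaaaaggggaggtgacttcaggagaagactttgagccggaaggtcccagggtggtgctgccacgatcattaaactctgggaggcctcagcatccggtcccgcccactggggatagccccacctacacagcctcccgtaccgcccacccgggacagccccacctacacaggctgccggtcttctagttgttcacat
Cel, chr2:28563404-28563653, minus strand: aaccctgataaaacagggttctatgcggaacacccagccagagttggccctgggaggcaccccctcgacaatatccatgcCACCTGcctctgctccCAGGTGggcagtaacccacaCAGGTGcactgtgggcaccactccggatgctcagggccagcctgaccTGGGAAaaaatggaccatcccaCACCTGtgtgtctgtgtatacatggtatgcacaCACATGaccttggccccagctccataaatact
The window of Pnlip held no E-box, 1 TTCCCA from 171 to 166 bases before the start, and 1 TATAAA, in lower case, from 30 to 25 bases before it. The RefSeq start of Pnlip lies inside the GENCODE gene, downstream of its first annotated base. The Cel window held 5 E-boxes and 1 TGGGAA, that of Pnliprp1 held 2 and 1, and that of Pnliprp2 held 1 E-box only.

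A window of Pla2g1b (chr5:115465892-115466141, not printed) held neither motif. None of the 5 windows held TTCNNNGAA, the letters of a STAT site, a motif of interest because IL-22 acts through STAT3. As a background, 32536 distinct promoter sequences of the same length, not drawn from every chromosome, were searched on both strands. CANNTG was present in 66.2% of them, TGGGAA in 21.6%, TTCNNNGAA in 7.04% and TATAAA in 12.3%. These matches describe letters in short windows and were not measured as binding sites. Clps has no entry in the promoter table.

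The adult lipase Pnlip was present at a low level in both groups at P5. In WT mice 1 to 5 it was at 55.37, 59.88, 52.92, 54.78 and 67.94 CPM. In KSR23 mice 1 to 5 it was at 11.67, 15.99, 19.67, 17.14 and 16.54 CPM. The highest KSR23 mouse lay well below the lowest WT mouse. The mean fell from 58.18 ± 6.03 to 16.2 ± 2.9 CPM (SD, n = 5 each), 3.61-fold, with a log2 FC of -1.85 (SE 0.111, adjusted p = 6.39e-10, edgeR quasi-likelihood test, Benjamini-Hochberg adjusted). A two-sided exact permutation test of the CPM gave p = 0.00794, the lowest value this design can reach, for Pnlip and for each of the other 5 genes. Of the 13882 tested genes 45 had a log2 FC below that of Pnlip. These values rest on 1508 to 1825 counts per WT library and 352 to 927 per KSR23 library, so counting error is small beside the difference.

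Colipase, the cofactor of Pnlip, showed the next largest fall. Clps was at 39310, 31140, 35060, 46860 and 34260 CPM in WT mice 1 to 5. In KSR23 mice 1 to 5 it was at 14390, 17100, 16940, 16850 and 16710 CPM. WT mice were spread widely, KSR23 mice lay close together except for the lower replicate 1, and the groups stood far apart. The mean fell from 37330 ± 6070 to 16400 ± 1130 CPM (SD, n = 5 each), 2.28-fold, with a log2 FC of -1.19 (SE 0.121, adjusted p = 6.06e-07, edgeR quasi-likelihood test, Benjamini-Hochberg adjusted).

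Among the lipases of the suckling period, Pnliprp2, which also splits galactolipids and phospholipids, fell from 3133 ± 135 to 1985 ± 268 CPM (SD, n = 5 each). WT mice 1 to 5 were at 3078, 3030, 3353, 3167 and 3036 CPM, and KSR23 mice 1 to 5 at 1563, 1929, 2174, 2248 and 2011 CPM. The WT mice hardly varied, and all KSR23 mice were below them. The log2 FC was -0.66 (SE 0.0996, adjusted p = 6.52e-05, edgeR quasi-likelihood test, Benjamini-Hochberg adjusted), a fall of 1.58-fold.

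Cel, whose product also splits cholesteryl and retinyl esters, was among the most abundant messages of the tissue. WT mice 1 to 5 had 79860, 84290, 88020, 90260 and 79470 CPM, and KSR23 mice 1 to 5 had 51320, 59850, 50440, 52510 and 65780 CPM. Replicates 2 and 5 of the KSR23 mice came closest to the WT mice without reaching them. The mean fell from 84380 ± 4800 to 55980 ± 6620 CPM (SD, n = 5 each), 1.51-fold, with a log2 FC of -0.59 (SE 0.112, adjusted p = 0.000632, edgeR quasi-likelihood test, Benjamini-Hochberg adjusted).

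Pnliprp1 showed the smallest fall of the 6. WT mice 1 to 5 had 104800, 99870, 108900, 111100 and 102300 CPM, and KSR23 mice 1 to 5 had 76040, 78630, 74740, 81960 and 92690 CPM. KSR23 replicate 5 stood closest to the WT range, and the groups did not overlap. The mean fell from 105400 ± 4630 to 80810 ± 7190 CPM (SD, n = 5 each), 1.3-fold, with a log2 FC of -0.38 (SE 0.107, adjusted p = 0.0114, edgeR quasi-likelihood test, Benjamini-Hochberg adjusted). In every one of the 10 libraries no gene had more counts than Pnliprp1.

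Pla2g1b, whose product is made as a proenzyme that trypsin activates, was a minor message at this age. WT mice 1 to 5 had 96.76, 74.6, 68.53, 86.15 and 86.37 CPM, and KSR23 mice 1 to 5 had 40.63, 57.82, 62.93, 54.83 and 62.07 CPM. The lowest WT mouse and the highest KSR23 mouse lay near each other, without overlap. The mean fell from 82.48 ± 11.1 to 55.66 ± 9.02 CPM (SD, n = 5 each), 1.48-fold, with a log2 FC of -0.57 (SE 0.109, adjusted p = 0.000709, edgeR quasi-likelihood test, Benjamini-Hochberg adjusted).

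The mice did not keep the same order from gene to gene. KSR23 replicate 1 was the lowest of its group for Pnlip, Pnliprp2, Clps and Pla2g1b, but not for Pnliprp1 and Cel, for which it was replicate 3. KSR23 replicate 5 was the highest for Pnliprp1 and Cel. Among WT mice, replicate 4 was the highest for Pnliprp1, Cel and Clps, and replicate 5 for Pnlip.

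To compare levels between genes, CPM was divided by the length of the longest coding transcript in kilobases. In WT mice the order of these levels was Pnliprp1, Clps, Cel, Pnliprp2, Pla2g1b and Pnlip. Pnliprp1 was at 65100 ± 2860 and Clps at 61090 ± 9940 CPM per kilobase (SD, n = 5 each), and their ranges overlapped, from 61690 to 68650 and from 50970 to 76690. Cel followed at 40900 ± 2330, below both, then Pnliprp2 at 1993 ± 85.7, Pla2g1b at 148.1 ± 19.9 and Pnlip at 39.12 ± 4.05 CPM per kilobase. From Clps downward, each gene's highest WT mouse was below the lowest WT mouse of the gene before it. With coding length in place of transcript length, Clps came before Pnliprp1 in WT mice.

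In KSR23 mice the order was Pnliprp1, Cel, Clps, Pnliprp2, Pla2g1b and Pnlip. Cel was at 27140 ± 3210 and Clps at 26840 ± 1850 CPM per kilobase (SD, n = 5 each), with overlapping ranges, and Pnliprp1 stood above both at 49910 ± 4440. With coding length Clps came before Cel in this group too. Clps thus moved from the level of Pnliprp1 to that of Cel on the scale of transcript length. Pnliprp2 was at 1263 ± 170, Pla2g1b at 99.92 ± 16.2 and Pnlip at 10.9 ± 1.95 CPM per kilobase.

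**Figure D2:**
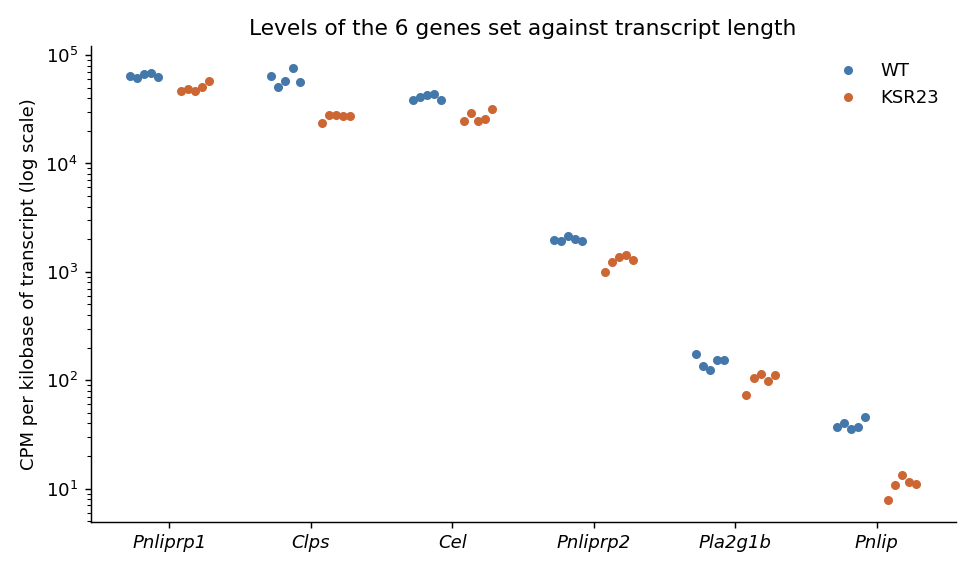
CPM per kilobase of transcript on a log axis for each gene (horizontal axis, in the order of the WT means), with 1 point per mouse for the 5 WT and 5 KSR23 mice. Pnlip is the lowest of the 6 in both groups, at 39.12 in WT and 10.9 in KSR23 mice on average, and Pnliprp1 has the highest mean in both.

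The neonatal lipases Cel and Pnliprp2, and the related Pnliprp1, far exceeded the adult lipase in both groups. Per kilobase of transcript, the WT mean of Pnliprp1 was 1660-fold that of Pnlip, the mean of Cel 1050-fold and the mean of Pnliprp2 50.9-fold. In KSR23 mice these ratios of means were 4580-fold, 2490-fold and 116-fold. Clps, whose product serves Pnlip, was 1560-fold above it in WT mice and 2460-fold in KSR23 mice, and Pla2g1b 3.79-fold and 9.17-fold. Counts grow with transcript length as well as level, and on that scale 1023 genes exceeded Pnlip in every WT mouse. Also by count, Pnlip ranked from 1049 to 1543 among all genes in WT libraries and from 4607 to 6843 in KSR23 libraries, while Cel ranked 2 in WT and 2 to 4 in KSR23 libraries. Clps went from ranks 5 to 8 to ranks 10 to 12, Pnliprp2 from 27 to 28 to 31 to 36, and Pla2g1b from 676 to 1055 to 1211 to 2197.

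Whether Pnlip fell by more than Cel, Pnliprp2 and Pnliprp1 was tested within libraries, where scaling between libraries plays no part. Per 1000000 counts on Pnliprp1, Pnliprp2 and Cel together, WT mice 1 to 5 had 295, 320, 264, 268 and 368 counts on Pnlip. KSR23 mice 1 to 5 had 90.5, 114, 154, 125 and 103. The 2 groups did not overlap, with the highest KSR23 mouse, replicate 3, well under the lowest WT mouse.

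Log2 ratios of counts were compared for all 15 pairs of the 6 genes by a two-sided exact permutation test with Benjamini-Hochberg adjustment over the pairs, and 11 pairs passed an adjusted p of 0.05. The log2 ratio of Pnlip to Pnliprp1 was -10.83 ± 0.194 in WT and -12.3 ± 0.289 in KSR23 mice (SD, n = 5 each), a difference of -1.47 (SE 0.156). The ratio of Pnlip to Cel differed by -1.26 (SE 0.168), to Pnliprp2 by -1.19 (SE 0.0993), to Pla2g1b by -1.28 (SE 0.108) and to Clps by -0.68 (SE 0.166), all on the log2 scale. Each of these 5 differences had p = 0.00794 and an adjusted p of 0.0119 in the exact permutation test, with every KSR23 mouse below every WT mouse. Pnlip therefore fell by more than each of the other 5 genes, its own cofactor included.

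**Figure D3:**
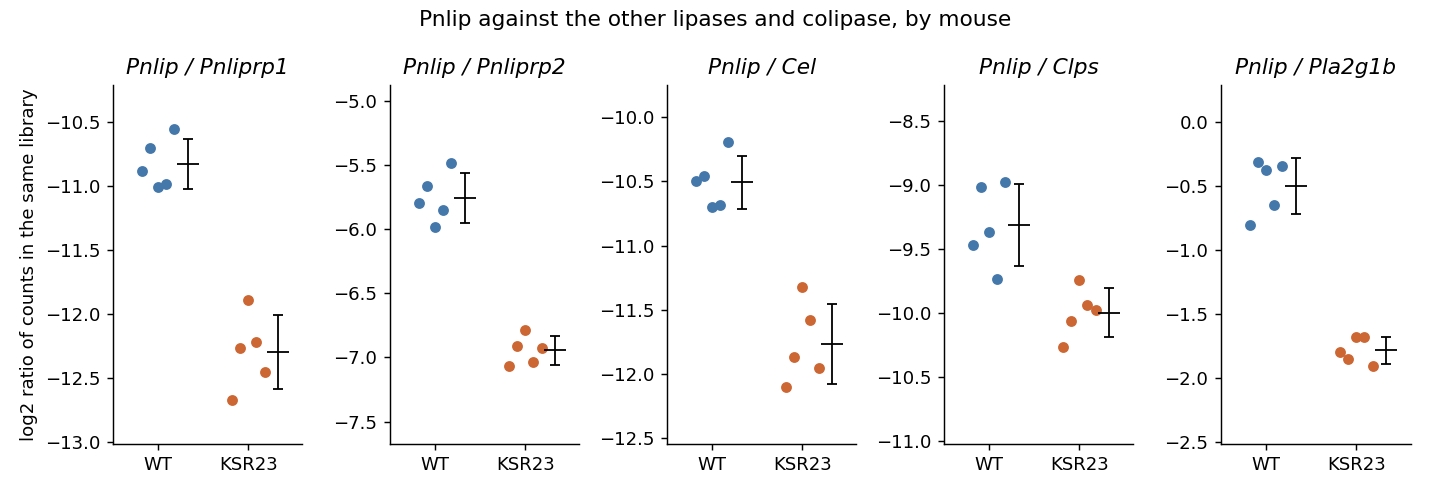
Log2 ratio of Pnlip counts to the counts of each other gene in the same library (vertical axes, which cover the same span in every panel but start at different values), for 5 WT and 5 KSR23 mice, with group means ± SD in black. In all 5 panels the KSR23 points lie below the WT points, with the smallest shift, -0.68, against Clps.

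Clps in turn fell by more than the 4 remaining genes. The log2 ratio of Pnliprp1 to Clps was higher in KSR23 mice by 0.79 (SE 0.101), that of Cel to Clps by 0.58 (SE 0.117) and that of Pnliprp2 to Clps by 0.51 (SE 0.113), and the ratio of Clps to Pla2g1b differed by -0.60 (SE 0.119). All 4 had an adjusted p of 0.0119 in the exact permutation test and no overlap between groups. Among the abundant lipases, Pnliprp1 lost less than Cel, with a log2 ratio higher by 0.21 (SE 0.0492, adjusted p = 0.0119, exact permutation test). It also lost less than Pnliprp2, by 0.28 (SE 0.0974, adjusted p = 0.0216, exact permutation test), and here the groups overlapped.

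For 4 pairs no difference was detected. The log2 ratio of Pnliprp2 to Cel differed by -0.07 (SE 0.118, adjusted p = 0.578, exact permutation test), that of Pnliprp2 to Pla2g1b by -0.09 (SE 0.124, adjusted p = 0.568) and that of Cel to Pla2g1b by -0.02 (SE 0.154, adjusted p = 0.865). The ratio of Pnliprp1 to Pla2g1b differed by 0.19 (SE 0.142, adjusted p = 0.288, exact permutation test). These p-values do not show that the 4 pairs moved alike, and Pla2g1b, the member of 3 of them, rests on far fewer counts than the other genes of these pairs.

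The 6 genes together made up a large share of the counts on genes. They held 22.3% ± 0.747 of gene counts in WT mice, from 21.6% to 23.5%, and 16.0% ± 0.702 in KSR23 mice, from 15.5% to 17.2% (SD, n = 5 each). The difference was -6.29 percentage points. Gene counts leave out alignments that were not unique, 1.07 to 1.26 per gene count in WT and 0.667 to 0.787 in KSR23 mice. A share of all alignments would therefore be smaller, more so in WT mice, and the group difference on that base was not tested. The Reg family, secreted lectins of which 7 genes were counted, went from 3.76% to 11.8% of gene counts, and with these genes left out of the total the members held 23.2% and 18.1%, a difference of -5.03 points. The 21 other digestive enzyme genes listed and counted held 33.9% ± 0.577 in WT and 28.3% ± 1.54 in KSR23 mice. The list does not hold every digestive enzyme gene of the pancreas. Of the counts on the 6 genes and these 21 together, the lipases and colipase held 39.6% ± 1.0 in WT and 36.1% ± 1.34 in KSR23 mice, without overlap. Within the set, the share of Pnliprp1 went from 45.8% to 52.1% of the counts on the 6 genes, that of Cel from 36.7% to 36.0% and that of Clps from 16.1% to 10.6%.

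Set among the other digestive enzymes listed, the lipases were spread over the order of changes rather than grouped. Of the 26 listed digestive enzyme genes tested, ordered from the lowest log2 FC upward, Pnlip came 4 and Clps 8. The chymotrypsin-like Ctrl (log2 FC -2.90), the elastase Cela1 (-2.53) and the chymotrypsin Ctrc (-2.11) came before Pnlip. Pnliprp2, Cel and Pla2g1b came at 12, 13 and 14, next to the carboxypeptidase Cpb1 (-0.54), and Pnliprp1 came at 19. Of the 20 other listed digestive enzymes tested, 13 were called lower, 4 higher and 3 neither, with a median log2 FC of -0.51. The 4 higher ones were the trypsinogens Try4, Prss2, Try5 and Prss3, so no lipase shared the direction of these genes. Not all listed trypsin genes rose, since Try10 was called lower (-0.97) and Prss1 was called neither (-0.05), and Try4 overlapped between groups. Trypsin-like genes outside the list were not placed in this order.

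**Figure D4:**
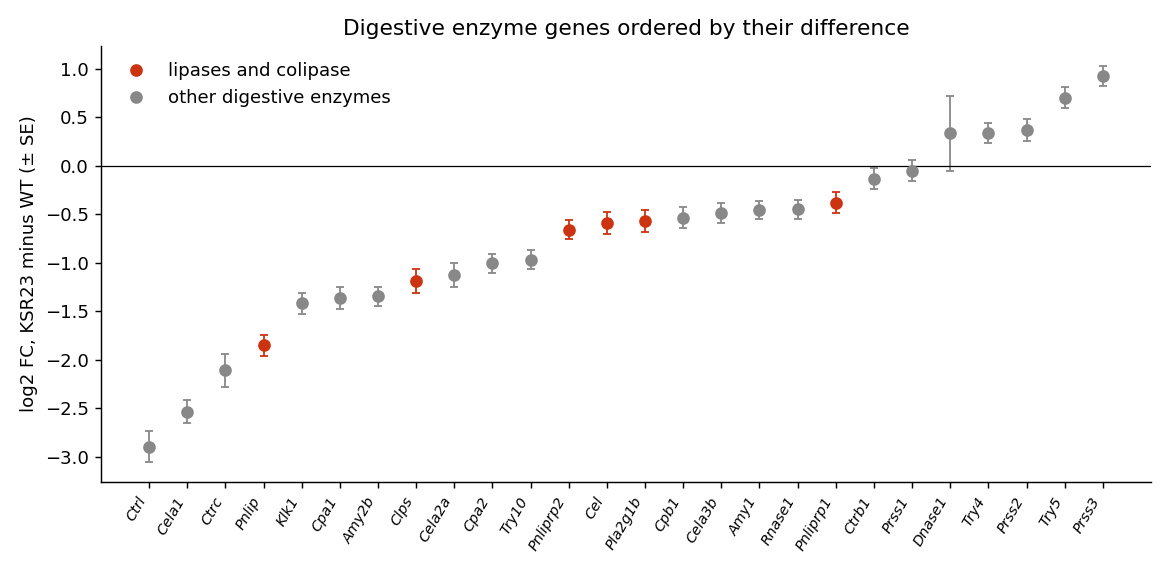
Log2 FC of KSR23 against WT (vertical axis, ± SE from edgeR's quasi-likelihood fit over 5 WT and 5 KSR23 mice) for the 26 listed digestive enzyme genes tested, ordered from lowest to highest. The 6 lipase and colipase genes (red) run from -1.85 for Pnlip to -0.38 for Pnliprp1, all below 0, while 5 other enzymes (grey) lie above 0.

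Other secreted lipases and phospholipases were mostly low in this tissue. Of 21 such genes 9 could be tested, of which 2 were called higher and 7 neither, with a median log2 FC of 0.21. Pla2g2d, a group II phospholipase A2, rose from 1.23 ± 0.724 to 5.02 ± 1.19 CPM (SD, n = 5 each), with a log2 FC of 2.05 (SE 0.289, adjusted p = 2.96e-05, edgeR quasi-likelihood test, Benjamini-Hochberg adjusted). Liph, a lipase specific for phosphatidic acid, rose from 10.5 ± 0.961 to 15.9 ± 3.32 CPM, with a log2 FC of 0.60 (SE 0.128, adjusted p = 0.00167). Lpl, the lipoprotein lipase of capillaries, was at 127 ± 22.6 CPM in WT mice, beside 122 ± 17.4 CPM in KSR23 mice (adjusted p = 0.713). Lcat, which esterifies cholesterol in lipoproteins, was at 0.612 ± 0.139 and 0.336 ± 0.133 CPM (adjusted p = 0.0719). Gastric lipase, Lipf, had at most 2 counts in any library, and Lipi, Lipm and Clpsl2 had 0 in all.

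Most lipases that act inside cells did not pass the test. Of 20 such genes 17 were tested, of which 1 was called lower, 4 higher and 12 neither, with a median log2 FC of 0.13. Ces1d, a carboxylesterase of the endoplasmic reticulum, fell from 68.8 ± 5.11 to 48.0 ± 6.25 CPM (SD, n = 5 each), with a log2 FC of -0.52 (SE 0.0859, adjusted p = 0.000172, edgeR quasi-likelihood test, Benjamini-Hochberg adjusted). The 4 that rose were Pla2g15 (log2 FC 0.58), Pla2g4a (0.53), Daglb (0.32) and Pnpla2 (0.24), the last being the adipose triglyceride lipase. Mgll, the monoglyceride lipase, was at 65.4 ± 3.68 CPM in WT and 63.4 ± 4.0 CPM in KSR23 mice (adjusted p = 0.645).

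Genes for fat uptake and chylomicron assembly, chiefly tasks of the enterocyte, were mostly low in this tissue. Of 24 genes on the list 20 were found among those counted, and 13 were tested. Cd36 (log2 FC -0.86) was called lower, and so was Acat2 (-0.65), which encodes an enzyme of cholesterol synthesis rather than of chylomicron assembly. Apoa4 (2.56), Soat2 (1.14), Mttp (0.60) and Dgat1 (0.25) were called higher. The median log2 FC over the 13, Acat2 included, was 0.19. Apoa4 ranged from 7 to 406 counts among KSR23 libraries, overlapping the 10 to 17 counts of WT libraries.

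The transcription factors of acinar cells were measured beside the lipases. Of 9 such genes, 4 were called lower, 2 higher and 3 neither, with a median log2 FC of -0.10. Ptf1a, the helix-loop-helix subunit of the PTF1 complex, was at 28.0 ± 4.09 CPM in WT mice, with 19.6 ± 2.95 CPM in KSR23 (SD, n = 5 each), with a log2 FC of -0.50 (SE 0.111, adjusted p = 0.00218, edgeR quasi-likelihood test, Benjamini-Hochberg adjusted) and overlapping groups. Rbpjl, the acinar subunit that reads the TGGGAA core, fell by 0.40 on the log2 scale (SE 0.0771, adjusted p = 0.000673), and Bhlha15, also called Mist1, by 0.43 (SE 0.0918, adjusted p = 0.00185). The fourth, Foxp2, had a log2 FC of -0.56. Xbp1, a regulator of secretory capacity, rose from 737 ± 28.6 to 1380 ± 179 CPM, with a log2 FC of 0.91 (SE 0.0902, adjusted p = 4.7e-07), and Nr0b2 had a log2 FC of 0.75.

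Markers of other cell types also differed between the groups, in both directions, and their part in the result was not tested. Of 11 ductal markers tested, 9 were called higher and 2 neither, the latter being Krt19 (log2 FC -0.05) and Car2 (0.20). The summed level of the 12 listed ran from 1590 to 1730 CPM in WT and from 2580 to 2820 CPM in KSR23 mice. Spp1 and Krt18 were the largest parts of that sum. Of 10 islet markers 7 were called lower and 1 higher, with sums from 8230 to 11500 CPM in WT and from 5090 to 6390 CPM in KSR23 mice. Fat tissue around the organ also carries lipases, and of 10 adipocyte markers 3 were tested and 1, Fabp4, was called lower, while Lipe (log2 FC 0.18) and Pparg (0.23) did not pass the test. The summed level of the list, most of it Fabp4, ran from 94.9 to 148 CPM in WT and from 42.1 to 71.7 CPM in KSR23 mice. Lep had 0 to 23 counts in WT libraries and 0 in KSR23 libraries.

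Of 7 myeloid markers tested 6 were called higher, with sums from 212 to 282 CPM in WT and from 263 to 624 CPM in KSR23 mice. Of 8 hepatocyte markers 3 were tested and 2, Ttr and Alb, called lower, with sums from 146 to 183 CPM and from 39.2 to 49.3 CPM, nearly all of it Ttr, which islet cells also make. Of 10 enterocyte markers only Vil1 and Apoa4 were tested and both were called higher, with sums from 5.66 to 7.93 CPM in WT and from 7.57 to 23.8 CPM in KSR23 mice. Of 4 lymphoid markers tested 1, Cd3e, was called lower, and sums ran from 6.16 to 8.13 CPM and from 3.57 to 6.25 CPM. Untested Cd3d went the other way, with 2 to 5 counts in WT and 11 to 30 in KSR23 libraries. So did Cd8a, with 0 counts in WT and 1 to 4 in KSR23 libraries, while untested Ms4a1 and Nkg7 overlapped. Of 9 stromal and endothelial markers 2 were called lower and 2 higher, with overlapping sums.

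For each of the 6 genes, the genes with the most similar pattern were sought by the root mean square difference, over the 10 mice, of log2 CPM after subtraction of each gene's WT mean, among 7422 genes with a mean of at least 10 CPM. A small value means that a gene moved from its own WT level by the same log2 steps in the same mice. The 3 genes most like Pnlip were Fam81a (0.154), Slc38a5 (0.204) and Hsd17b13 (0.226). The median over all compared genes was 1.34 for Pnlip, and it differed by member, at 0.858 for Clps and 0.461 for Cel. Those most like Clps were Hsbp1l1 (0.104), Reep5 (0.12) and Ang (0.155). Cel was followed most closely by the carboxypeptidase gene Cpb1 (0.0602), the disulfide isomerase gene Pdia2 (0.0714) and 2700089E24Rik (0.0782).

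The nearest genes to Pnliprp1 were Ccnd2 (0.0622), Commd6 (0.0675) and Ero1lb (0.0752), and those to Pnliprp2 were Nme3 (0.0805), Cldn10 (0.1) and Lxn (0.103). Pla2g1b was followed by Psmb10 (0.106), Cisd1 (0.113) and H2afz (0.122). The median over all compared genes was 0.325 for Pnliprp1, 0.513 for Pnliprp2 and 0.479 for Pla2g1b. None of the 6 lipase and colipase genes was compared with another of the set in this search. These likeness values are a description over 10 libraries, each of which supplies all genes of 1 mouse.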

How the data were processed

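Total RNA of pancreas was primed with oligo-dT from 100 pg (SMART-Seq v4) and sequenced as single-end 75-base reads. The authors aligned the reads to mm10 with TopHat2 2.1.0 and counted unique alignments per gene with HTSeq 0.6.1p1, per the study's methods and the submitters' processing notes. The deposited values are raw counts of 24062 genes per library, with no normalization, and tallies of reads given to no gene, which were kept out of library sizes. PCR copies cannot be told apart, so floors cover counting error only.

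As in the study, a gene was tested if no library held fewer than 5 of its counts (13882 genes). Counts were scaled by TMM and compared with edgeR 4.0.16 in R 4.3.3 by the quasi-likelihood F test, with Benjamini-Hochberg adjustment. The study used the likelihood ratio test of the same tool, which was one of the alternatives. Others were DESeq2 1.42.0, edgeR's RLE scaling, no scaling beyond library size, a library size that omits the 50 highest genes or the digestive enzyme and Reg family genes, other filters, a block for the replicate number, and each mouse left out in turn. SE is the log2 FC divided by the square root of F. Log2 ratios within libraries used counts + 0.5, with 0 and 5 as alternatives. Permutation tests used scipy 1.17.1, and sequence identity used Biopython 1.88.

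The members and lists were chosen with earlier results of these data known. The text names the 6 members, Ptf1a, called or counted list members, the 3 genes most like each member, and genes next to the members. Il23a and Il12b serve as a check of the labels. Same-numbered libraries of the 2 groups did not deviate together (correlations from -0.111 to 0.066), so the numbers were not taken as pairs. Any 2 libraries of a group differed far beyond counting noise (chi-square per degree of freedom at least 11.4). Jejunum libraries were not analysed here.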

Additional observations from a re-analysis of the deposited data

Results flagged for a closer look

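Clps in KSR23 replicate 1 stood apart from its group, at 14390 CPM against 16710 to 17100 CPM in the other 4 KSR23 mice. Of 28 groups of 5 values examined for the lipases, their ratios to Pnlip, their shares and Ptf1a, it was the 1 group with a value this far from the rest, and chance gives about 1 in 20 groups.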

How the results depend on the processing

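All 6 lipase and colipase genes kept a lower value in KSR23 mice under the 19 alternatives run for each, and 5 of them kept an adjusted p under 0.05 in all. The log2 FC lay between -1.92 and -1.76 for Pnlip, -1.25 and -1.09 for Clps, -0.71 and -0.57 for Pnliprp2, -0.66 and -0.50 for Cel, -0.63 and -0.48 for Pla2g1b, and -0.44 and -0.29 for Pnliprp1. With the replicate number as a block, Pnliprp1 had a log2 FC of -0.39 (adjusted p = 0.0737 by edgeR's quasi-likelihood test), and 3749 genes in all were called in place of 4299. The replicate block changed the call of no other member, and only replicate 2 correlated best with its own number. The cause was not tested. With library size alone, 1164 genes were called lower in place of 2049. The share of gene counts on the 6 genes differed by -5.03 points with the Reg family left out of the total, which by construction shrinks the total more in KSR23 mice. Of the 15 ratios, 11 were called with 0 or 5 counts added in place of 0.5 and with each mouse left out, the alternatives run for them. The ratio of Cel to Pla2g1b, called in none, lay between -0.104 and 0.0605 on the log2 scale with each mouse left out in turn, at 0.00986 without WT replicate 2, 0.0560 without WT replicate 3 and 0.0605 without KSR23 replicate 3. Without KSR23 replicate 1, Clps had a log2 FC of -1.15. Levels per kilobase of coding length were by construction higher, in WT and KSR23 mice at 74270 and 56950 CPM for Pnliprp1, 110100 and 48380 for Clps, 46960 and 31150 for Cel, 2167 and 1373 for Pnliprp2, and 188.3 and 127.1 for Pla2g1b. Depth limits the genes outside the set that lie near the floor of 3 counts, not the 6 members.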
